A study of Ovis aries with 9 samples.

Results

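Hypothalamus messenger RNA of Dolang sheep was compared between prepuberty and puberty at the level of genes. Prepuberty was represented by 3 ewes of 120 days of age and puberty by 3 ewes of 130 days, which together gave 6 of the 9 libraries of the series. The other 3 libraries came from postpuberty ewes of 150 days, and they entered the statistical model only to share its estimate of the spread. Every library was prepared from the hypothalamus tissue of 1 animal, and the ewes were healthy, untreated and kept alike. Stages had been assigned by watching for estrus, so that prepuberty ewes were quiet and refused the ram, puberty ewes showed their first estrus, and postpuberty ewes were quiet again. Each stage was of a single age, so stage and age cannot be told apart. Expression was given in FPKM (fragments mapped to a transcript, scaled by its length and by the total of the library), and the FPKM of all protein-coding RefSeq transcripts of a gene were added up. Of 21284 genes with such transcripts, 12625 reached a mean of at least 1 FPKM in prepuberty or in puberty and were tested. The second puberty library (Puberty 2) was unlike all others, so differences are given with it (all 9 libraries) and without it (8 libraries, with 12667 genes tested), and 12461 genes were tested both ways.

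The hypothalamus starts puberty through neurons that release gonadotropin-releasing hormone (GnRH), which drives the pituitary to secrete the gonadotropins that act on the ovary. Kisspeptin, neurokinin B and dynorphin neurons time this release, and oestrogen, nutrition, day length and glial signals act on them. GnRH neurons are few and scattered, so their transcripts are a very small part of whole-tissue RNA, and most of the RNA of this tissue comes from oligodendrocytes, astrocytes, neurons outside the GnRH network and vessels. In bulk tissue, fewer cells of a type and less RNA per cell cannot be told apart.

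In the 6 libraries of the comparison, genes with at least 1 FPKM numbered between 11726 and 12374, except in Puberty 2, where they numbered 9395. Of the genes tested, 788 were listed at 0 in Puberty 2, against 16 to 61 per library elsewhere. HSPA5, which encodes the abundant chaperone BiP of the endoplasmic reticulum, was among those listed at 0 in Puberty 2, so an FPKM of 0 there is not read as absence. Spearman's correlation of Puberty 2 with the other libraries was between 0.642 and 0.702 over genes, and that of all other pairs was between 0.819 and 0.946. Between 12.39% and 17.4% of the FPKM of a library lay in assembled transcripts that carry no gene name, so a gene sum leaves out whatever the assembly assigned to them. The tissue label was checked against neuropeptides and transcription factors of the hypothalamus. Of 30 neuropeptide genes, 10 reached 10 FPKM in at least 1 of the 6 libraries (among them SST, TAC1, PENK, TRH and POMC), and 13 stayed below 1 FPKM in all 6. GNRH1 was listed at 0 in every library. Of 29 hypothalamic transcription factor genes, 19 stayed below 1 FPKM in all 6 libraries, including NKX2-1 and SIM1.

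No gene passed the thresholds (Benjamini-Hochberg adjusted p below 0.05 with a log2 fold change of 1 or more in either direction) in the limma test of puberty against prepuberty, either among 12625 genes with Puberty 2 (0.0%) or among 12667 genes without it (0.0%). Unadjusted p-values were below 0.05 for 215 genes with Puberty 2 and for 204 genes without it. The smallest adjusted p of limma was 0.810 with Puberty 2 and 0.203 without it. The latter was that of PRR18, which was lower in puberty. The standard error of the log2 fold change of a gene had a median of 0.374 with Puberty 2 and of 0.26 without it, so differences between 3 animals and 3 animals had to be large to stand out from the spread.

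Genes were therefore also described by whether the libraries of the stages overlapped. All 3 puberty libraries lay above all 3 prepuberty libraries for 284 genes (2.25% of those tested) and below them for 361 genes (2.86%). With 2 puberty libraries left after Puberty 2 was taken out, 864 genes (6.82%) were higher and 571 genes (4.51%) were lower. Since 0.1 is the lowest two-sided p that an exact permutation of 3 and 3 libraries allows, these counts describe the libraries and are not calls. Some scalings moved the balance of these counts. Higher genes made up 44.0% of all separated genes as deposited, 45.5% after upper quartile scaling, 22.1% after scaling to equal totals and 57.6% after quantile normalization.

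Whether Puberty 2 was included decided the sign of many differences. The log2 fold change had opposite signs with and without it for 4990 of the 12461 genes tested both ways. A log2 fold change of 1 or more in either direction was reached by 683 genes with Puberty 2, by 226 genes without it, and by 123 genes both ways with the same sign. The median over all genes was -0.159 with Puberty 2 and 0.024 without it. Of the 12461 genes, 21 (0.169%) were higher in every puberty library than in every prepuberty library with a log2 fold change of at least 1 both ways, and 29 (0.233%) were lower by the same rule. These 50 genes are described first, and 7 of them carry only a LOC identifier.

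**Figure D1:**
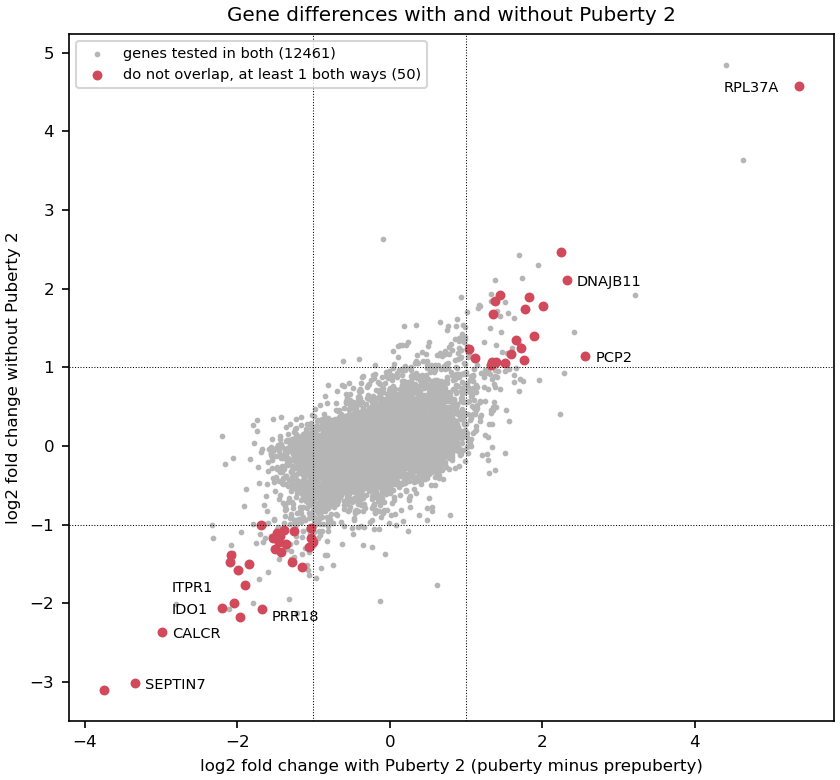
Log2 fold change of puberty against prepuberty on the log2(FPKM + 1) scale with all 9 libraries (horizontal axis) and without Puberty 2 (vertical axis), 1 point per gene tested both ways. The 50 genes in red lie outside the dotted lines at 1 and -1 on both axes and their libraries do not overlap. RPL37A is at the upper right and SEPTIN7 at the lower left. The unlabelled point farther to the lower left than SEPTIN7 is LOC101123533.

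The genes are described singly and ordered by what each is known to do, and the order names no theme of the comparison. Among fixed lists, 0 of 20 synaptic vesicle genes, 0 of 28 ribosomal protein genes (RPL37A is not among them) and 0 of 16 heat shock and folding genes were higher in every puberty library. The share over all genes was 2.25%, so counts of 0 in lists this short say little about them. Genes higher in puberty that are known from neurons come first. CBLN1 (chr14:17264053-17267524 of ARS-UI_Ramb_v3.0) encodes cerebellin 1, a secreted protein that bridges presynaptic neurexin and postsynaptic glutamate receptors. It measured 1.59, 1.68 and 2.34 FPKM in prepuberty and 4.92, 14.6 and 15.3 FPKM in puberty. The lowest puberty library stood above the highest prepuberty library, and the log2 fold change was 2.01 ± 0.64 (SE) with Puberty 2 and 1.79 ± 0.74 without it.

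CBLN3 (chr7:20559766-20565388), a cerebellin that is secreted together with CBLN1, measured 0.501, 0.531 and 0.287 FPKM in prepuberty and 1.65, 1.31 and 6.95 FPKM in puberty. Puberty 3 was the highest of the 6 libraries and the other puberty libraries lay closer to prepuberty. The difference on the log2 scale was 1.35 ± 0.99 with Puberty 2, 1.68 ± 1.18 without it and 0.79 without Puberty 3.

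GABRA6 (chr5:70941583-70958825) encodes the alpha 6 subunit of the GABA-A receptor, which in the brain is best known from cerebellar granule cells. Its prepuberty values of 0.0625, 0 and 0.0299 FPKM were at or close to 0, and its puberty values were 1.13, 0.452 and 6.20 FPKM. Puberty 3 again held the highest value of the 6, and the log2 fold changes were 1.45 ± 1.09 and 1.93 ± 1.28 with and without Puberty 2. Without Puberty 3 the gene did not pass the filter.

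PCP2 (chr5:14207268-14217388), which encodes a regulator of G-protein signalling of Purkinje cells, measured 0.895, 0.643 and 0.991 FPKM in prepuberty and 1.22, 76.6 and 6.42 FPKM in puberty. Most of its difference lay in Puberty 2. Its log2 fold change was 2.56 ± 1.31 with that library and 1.14 ± 1.11 without it.

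PVALB (chr3:180817081-180836364) encodes the calcium buffer parvalbumin of fast-spiking interneurons and Purkinje cells, and it measured 8.29, 35.0 and 38.5 FPKM in prepuberty and 58.4, 147 and 52.5 FPKM in puberty. All puberty libraries were above 50 FPKM and all prepuberty libraries were below 40 FPKM, with Prepuberty 1 far below the others. The log2 fold changes were 1.72 ± 0.65 and 1.25 ± 0.67, and 1.04 without Prepuberty 1.

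NXPH4 (chr3:162394914-162405409), a secreted ligand of neurexins, measured 0.0444, 0.875 and 0.467 FPKM in prepuberty and 3.98, 6.63 and 1.06 FPKM in puberty. The lowest puberty library, Puberty 3, exceeded the highest prepuberty library by little. The log2 fold changes were 1.59 ± 0.53 and 1.17 ± 0.53.

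Because 4 of these genes are best known from the cerebellum, 20 genes of cerebellar granule and Purkinje cells were listed after the values had been seen, and the list supports nothing beyond its values. Of its 17 members tested with Puberty 2, 6 were higher in every puberty library (CBLN1, CBLN3, GABRA6, PCP2, GNG13 and PVALB), beside 2.25% of all genes, 0 were lower in every one, and the median log2 fold change was 0.983 against -0.159 over all genes. Without Puberty 2, 9 of 18 were higher, beside 6.82% of all genes, 0 were lower and the median was 0.933 against 0.024 over all genes. Without Puberty 3 the median of the 14 genes left to test was 0.37. CBLN3, GABRA6, PCP2 and GNG13 stayed below 1 FPKM in every prepuberty library and passed the filter only through puberty. The counts and medians of the list are therefore partly fixed by the choice of its members. GNG13, a G-protein gamma subunit, measured 0.287, 0.277 and 0.717 FPKM in prepuberty and 1.08, 44.0 and 2.46 FPKM in puberty.

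Not all members separated the stages. FAT2 and NEUROD1, genes of granule cells, reached 0.711, 0.516 and 5.65 FPKM and 0.812, 0.397 and 4.67 FPKM in puberty against 0.427, 0.0179 and 0.538 FPKM and 0.0874, 0.435 and 0.182 FPKM in prepuberty, so that Puberty 3 was high and Puberty 2 lay within the range of prepuberty. CA8 and CALB1, genes of Purkinje cells, overlapped between the stages, with 0.952, 5.80 and 1.84 FPKM in prepuberty and 2.58, 0.174 and 6.02 FPKM in puberty for CA8. Summed over the list, the prepuberty libraries held 39.9, 71.3 and 76.7 FPKM, the puberty libraries 96.6, 300.8 and 205.0 FPKM, and the postpuberty libraries 361.7, 95.1 and 68.6 FPKM. The highest single library was thus Postpuberty 1, where CBLN1 measured 37.1 FPKM and GABRA6 21.9 FPKM. Whether the amount of tissue from outside the hypothalamus differed between libraries was not tested.

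**Figure D2:**
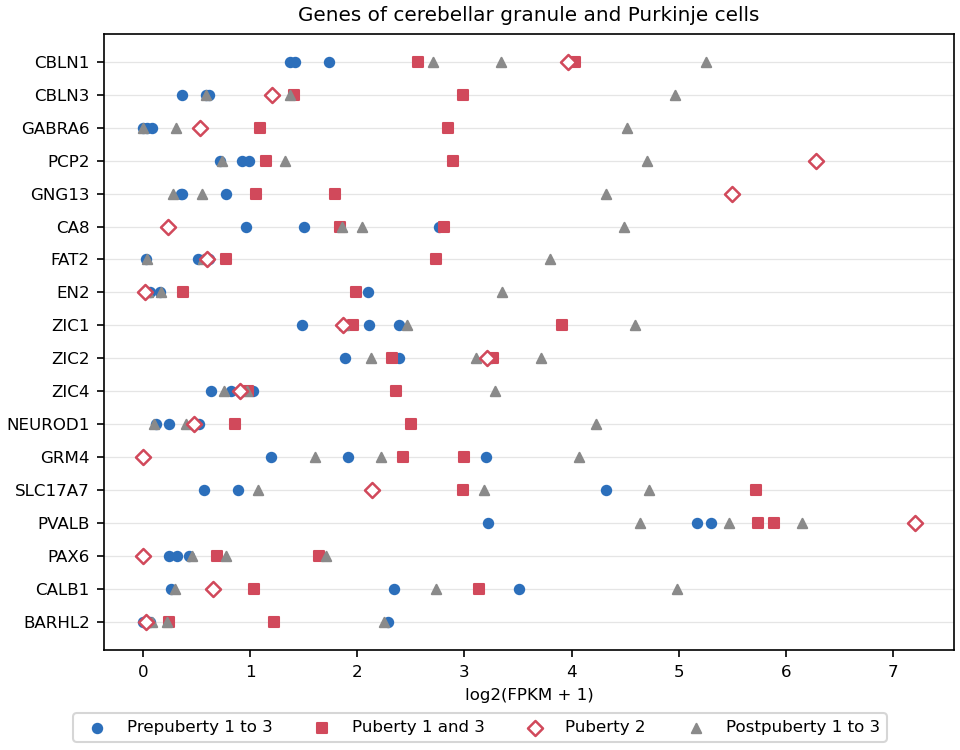
Expression of 18 genes of cerebellar granule and Purkinje cells as log2(FPKM + 1), 1 mark per library (circles prepuberty, squares puberty, open diamonds Puberty 2, triangles postpuberty). The puberty marks of CBLN1, CBLN3, GABRA6, PCP2, GNG13 and PVALB lie to the right of all prepuberty marks, and the triangle of Postpuberty 1 is the farthest to the right for CBLN1, CBLN3 and GABRA6.

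RPL37A (chr2:218496672-218515299), a protein of the large ribosomal subunit, measured 213, 3.84 and 3.63 FPKM in prepuberty and 363, 2059.6 and 445 FPKM in puberty. Prepuberty 1 was close to the puberty libraries, whereas Prepuberty 2 and 3 were below 4 FPKM. The log2 fold change was 5.36 ± 1.36 with Puberty 2 and 4.58 ± 1.54 without it. Of its FPKM, 98.3% lay in 1 of 3 transcripts. Ribosomal protein genes have many processed copies in the genome, so reads may be shared between copies and this value is uncertain.

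DNAJB11 (chr1:201408866-201424153), a co-chaperone of BiP in the endoplasmic reticulum, measured 0.442, 0.218 and 4.52 FPKM in prepuberty and 6.66, 13.1 and 10.1 FPKM in puberty. Prepuberty 3 stood apart from the other prepuberty libraries and below all puberty libraries, and the log2 fold changes were 2.32 ± 0.74 and 2.11 ± 0.88. RAB6A (chr15:51877840-51961312), a GTPase of Golgi transport, measured 1.27, 5.21 and 1.004 FPKM in prepuberty and 6.79, 13.6 and 6.72 FPKM in puberty. Its stages were close, with Prepuberty 2 just below Puberty 1 and 3, and the log2 fold changes were 1.65 ± 0.58 and 1.35 ± 0.64.

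The remaining named genes higher in puberty have varied or less well known roles. PHLDB1 (chr15:28996928-29045789), which encodes a pleckstrin homology domain protein that helps to anchor microtubules at sites of cell adhesion, measured 5.79, 5.09 and 5.78 FPKM in prepuberty and 23.5, 8.002 and 21.6 FPKM in puberty. Here the prepuberty libraries lay within 1 FPKM of each other and Puberty 2 was the lowest puberty library. The log2 fold change was accordingly larger without Puberty 2 (1.85 ± 0.31) than with it (1.38 ± 0.43), and its unadjusted limma p was 0.000467 without Puberty 2 and 0.0106 with it.

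TMEM123 (chr15:5910305-5994480), a transmembrane glycoprotein gene, measured 0.442, 0.127 and 0.135 FPKM in prepuberty and 2.70, 2.97 and 4.59 FPKM in puberty. Its log2 fold changes were 1.83 ± 0.47 and 1.89 ± 0.55, and it passed the filter only through puberty. The annotation gives this gene 47 coding transcripts, of which 39 were above 0. The puberty sums lay in different transcripts. A single transcript held all 2.97 FPKM in Puberty 2, but only 0.225 FPKM in Puberty 1 and 0.222 FPKM in Puberty 3. KLHDC8A (chr12:2962640-2969422), a kelch domain protein gene, measured 4.75, 9.95 and 4.55 FPKM in prepuberty and 27.5, 50.5 and 11.1 FPKM in puberty. Puberty 3 was only slightly above Prepuberty 2, and the log2 fold changes were 1.89 ± 0.57 and 1.40 ± 0.54.

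HTATIP2 measured 16.1, 1.14 and 8.67 FPKM in prepuberty and 22.2, 24.5 and 22.9 FPKM in puberty. Its puberty libraries were nearly equal while prepuberty was spread widely, and the log2 fold change was 1.78 with Puberty 2, 1.74 without it and 0.91 without Prepuberty 2. NT5DC2 measured 5.78, 2.49 and 3.99 FPKM in prepuberty and 8.44, 41.3 and 10.6 FPKM in puberty, with log2 fold changes of 1.76 and 1.09. MLLT11 measured 1.03, 0.155 and 0.637 FPKM in prepuberty and 3.43, 4.82 and 1.44 FPKM in puberty, with log2 fold changes of 1.35 and 1.07. In both genes Puberty 2 was the highest of the 6 libraries.

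**Figure D3:**
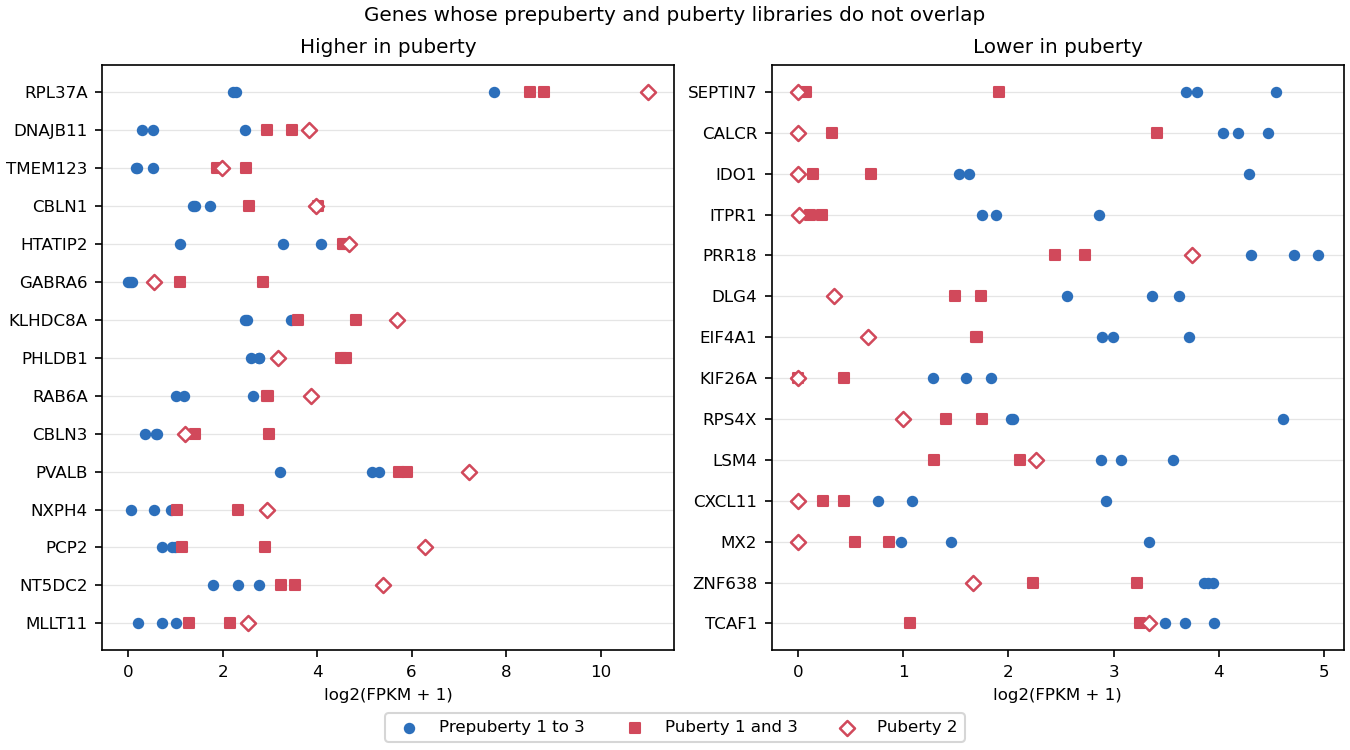
Expression as log2(FPKM + 1) of genes with the largest differences in each direction both with and without Puberty 2 (15 higher, 14 lower), 1 mark per library (circles prepuberty, squares Puberty 1 and 3, open diamonds Puberty 2). No puberty mark of any of these genes reaches the range of the prepuberty circles, and the gap is widest for SEPTIN7 and narrowest for MX2, NXPH4 and KLHDC8A.

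The genes lower in puberty are ordered in the same way. Of fixed lists, 0 of 13 oxytocin and calcium signalling genes, 0 of 16 GnRH secretion genes and 1 of 28 ribosomal protein genes were lower in every puberty library. The share over all genes was 2.86%, so such counts in short lists say little about them. CALCR (chr4:11558214-11671579) encodes the calcitonin receptor, which in the hypothalamus responds to amylin and calcitonin. It measured 17.1, 21.1 and 15.5 FPKM in prepuberty and 9.64, 0 and 0.251 FPKM in puberty. All prepuberty libraries were above 15 FPKM, Puberty 1 was intermediate, Puberty 2 was listed at 0 and Puberty 3 was close to 0. The difference on the log2 scale was -2.98 ± 0.94 with Puberty 2 and -2.36 ± 1.02 without it, and in postpuberty the gene measured 0.442, 0.135 and 6.13 FPKM.

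ITPR1 (chr19:21511652-21859937) encodes the inositol trisphosphate receptor of the endoplasmic reticulum, the channel through which GnRH and other hormone receptors coupled to Gq release calcium. Its values were 6.25, 2.37 and 2.68 FPKM in prepuberty and 0.172, 0.0111 and 0.0811 FPKM in puberty. No puberty library reached 0.2 FPKM, and the postpuberty values of 0.0607, 0.0758 and 0.0726 FPKM were as low. The log2 fold changes were -2.04 ± 0.31 and -1.99 ± 0.34, with unadjusted limma p-values of 8.78e-05 and 0.000494. The gene passed the filter only through prepuberty, so these p-values are not used as support. Of the FPKM of its 13 coding transcripts, 49.2% and 34.5% lay in 2 of them. Both transcripts were listed at 0 in every puberty and postpuberty library. Transcripts that the assembly named anew are not in these sums.

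DLG4 (chr11:26799831-26824100) encodes PSD-95, the main scaffold protein of the excitatory postsynapse, and it measured 9.30, 11.3 and 4.90 FPKM in prepuberty and 1.81, 0.268 and 2.33 FPKM in puberty. The gap between the lowest prepuberty and the highest puberty library was more than 2 FPKM. The log2 fold changes were -1.99 ± 0.43 and -1.57 ± 0.33, over 16 coding transcripts. GRM3, which encodes a glutamate receptor of presynaptic terminals and astrocytes, is not one of the 29 genes, but was lower in every puberty library, as 1 of 23 GABA and glutamate receptor genes on the fixed list (2.86% of all genes were lower). It measured 16.9, 25.0 and 19.3 FPKM in prepuberty and 13.3, 7.69 and 13.0 FPKM in puberty, and its log2 fold changes were -0.81 ± 0.36 and -0.58 ± 0.35.

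PRR18 (chr8:89012004-89016698), which encodes a proline-rich protein, had the smallest p-value without Puberty 2. Its values were 29.7, 18.8 and 25.2 FPKM in prepuberty and 4.42, 12.4 and 5.63 FPKM in puberty. Each puberty library, Puberty 2 included, was below the lowest prepuberty library, and the postpuberty values of 19.2, 20.1 and 20.4 FPKM lay within 2 FPKM of each other and close to the lower end of prepuberty. Its log2 fold change was -1.68 ± 0.35 with Puberty 2 and -2.07 ± 0.21 without it, and the limma adjusted p was 0.81 and 0.203.

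SEPTIN7 (chr4:62810571-62909467), the core subunit of septin filaments, measured 22.4, 11.9 and 12.8 FPKM in prepuberty and 0.0548, 0 and 2.76 FPKM in puberty. Prepuberty was above 11 FPKM throughout and puberty below 3 FPKM. The log2 fold changes were -3.34 ± 0.77 and -3.01 ± 0.89, and 89.8% of the FPKM lay in 1 of 4 transcripts.

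KIF26A (chr18:66388080-66426294), a kinesin family member, measured 2.03, 1.43 and 2.56 FPKM in prepuberty and 0.357, 0 and 0 FPKM in puberty and was listed at 0 in 2 puberty libraries. Its log2 fold changes were -1.42 ± 0.42 and -1.35 ± 0.49.

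EIF4A1 (chr11:27125101-27133684), the RNA helicase of translation initiation, measured 12.1, 6.98 and 6.41 FPKM in prepuberty and 2.23, 0.586 and 2.26 FPKM in puberty. RPS4X (chrX:64859349-64863596), a protein of the small ribosomal subunit, measured 3.07, 3.12 and 23.3 FPKM in prepuberty and 2.37, 0.994 and 1.65 FPKM in puberty. Its fold rested on Prepuberty 3, since the other libraries of both stages lay between 0.99 and 3.12 FPKM. The log2 fold changes of EIF4A1 were -1.85 ± 0.46 and -1.50 ± 0.44. Those of RPS4X were -1.51 and -1.31, and -0.65 without Prepuberty 3. Copies of both genes elsewhere in the genome may share their reads, so these values are uncertain too.

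LSM4 (chr5:4671295-4698034), a subunit of ring complexes in splicing and messenger RNA decay, measured 10.8, 6.34 and 7.42 FPKM in prepuberty and 1.46, 3.81 and 3.32 FPKM in puberty, with log2 fold changes of -1.28 ± 0.41 and -1.47 ± 0.43. ZNF638 (chr3:93181315-93316787), a zinc finger protein that binds nucleic acids, measured 14.4, 13.5 and 13.9 FPKM in prepuberty and 3.71, 2.17 and 8.35 FPKM in puberty. Its prepuberty libraries lay within 1 FPKM of each other, and the log2 fold changes were -1.53 ± 0.37 and -1.17 ± 0.28. TCAF1, which regulates a cold-sensing ion channel, measured 14.5, 11.8 and 10.2 FPKM in prepuberty and 1.10, 9.11 and 8.55 FPKM in puberty. Only Puberty 1 was clearly lower, and the log2 fold change was -1.15 with Puberty 2, -1.54 without it and -0.41 without Puberty 1.

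Of the genes lower in puberty, 3 are known to be induced by interferon, and they were grouped here without a test. MX2 is on the fixed list of interferon-stimulated genes described below, and IDO1 and CXCL11 are not. IDO1 (chr26:34382353-34395060), the first enzyme of tryptophan breakdown to kynurenine, measured 18.5, 1.90 and 2.08 FPKM in prepuberty and 0.109, 0 and 0.622 FPKM in puberty. CXCL11, a chemokine for activated T cells, measured 6.61, 0.693 and 1.12 FPKM in prepuberty and 0.181, 0 and 0.360 FPKM in puberty. MX2, an antiviral GTPase, measured 9.09, 0.976 and 1.73 FPKM in prepuberty and 0.825, 0 and 0.454 FPKM in puberty. In all 3 genes Prepuberty 1 was far above Prepuberty 2 and 3, which lay nearer to the puberty libraries.

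Their differences depended on that library. With Puberty 2 the log2 fold change was -2.20 ± 1.25 for IDO1, -1.36 ± 0.97 for CXCL11 and -1.45 ± 0.92 for MX2. Without Puberty 2 it was -2.06, -1.25 and -1.22. Without Prepuberty 1 it was -1.30 for IDO1 and -0.75 for MX2, and CXCL11 fell out of the filter. The marker levels of other cells moved with Prepuberty 1. The summed FPKM of 9 lymphocyte markers was 32.0, 3.3 and 8.3 in prepuberty against 2.7, 2.6 and 7.4 in puberty, and that of 12 microglia markers was 692.9, 219.3 and 281.1 against 200.9, 381.3 and 297.9. Their part in the result was not tested.

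Of 22 interferon-stimulated genes tested, 2 were lower in every puberty library (MX2 and CMPK2), beside 2.86% of all genes, and 0 were higher. The log2 fold change was above 0 for 0 of 22 with Puberty 2 (median -0.611, all genes -0.159) and for 2 of 22 without it (median -0.277, all genes 0.024). The median was -0.24 without Prepuberty 1, -0.99 without Prepuberty 2 and -0.98 without Puberty 3. CMPK2, a mitochondrial nucleotide kinase, measured 12.4, 12.7 and 10.0 FPKM in prepuberty and 9.27, 4.12 and 9.63 FPKM in puberty, with log2 fold changes of -0.62 with Puberty 2 and -0.28 without it. IFI6, a mitochondrial interferon-induced protein, measured 408, 35.7 and 116 FPKM in prepuberty and 42.7, 69.8 and 212 FPKM in puberty, so the stages overlapped. Of 10 antigen presentation genes, TAP2, a peptide transporter of the endoplasmic reticulum, was lower in every puberty library at 14.3, 7.51 and 18.0 FPKM against 30.4, 20.9 and 19.2 FPKM, with log2 fold changes of -0.83 and -0.50, as 1 of 10 beside 2.86% of all genes. The median of the 10 was -0.778 with Puberty 2, -0.535 without it, -0.20 without Prepuberty 1 (9 genes tested) and -1.15 without Prepuberty 2. B2M, the light chain of class I molecules, measured 657, 138 and 251 FPKM in prepuberty and 109, 148 and 289 FPKM in puberty.

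Several genes that carry only a LOC identifier showed large differences. LOC101123533 (chr2:238543737-238544071) measured 191, 254 and 259 FPKM in prepuberty and 19.5, 5.98 and 35.4 FPKM in puberty. LOC101121371 (chr15:39926338-39926697) measured 253, 184 and 206 FPKM in prepuberty and 66.4, 18.1 and 99.0 FPKM in puberty. Both were far lower in every puberty library than in any prepuberty library, with log2 fold changes of -3.75 ± 0.76 and -3.09 ± 0.75 for the former and of -2.08 ± 0.53 and -1.38 ± 0.25 for the latter.

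LOC114109518 (chr20:40952393-40952757) measured 69.7, 80.8 and 86.3 FPKM in prepuberty and 16.0, 26.5 and 17.3 FPKM in puberty, with log2 fold changes of -1.96 and -2.18. The annotated spans of these 3 genes were 335, 360 and 365 bases. Spans below 500 bases belonged to 4 of the 50 genes (8.0%) and to 60 of the 12461 genes tested both ways (0.482%). LOC101113032 (chr20:39870376-39872280) was higher in puberty, at 7.99, 2.66 and 2.75 FPKM in prepuberty and 15.2, 16.3 and 46.0 FPKM in puberty, with log2 fold changes of 2.25 and 2.47. LOC101102155 (chr10:23945360-23958829) was lower, at 1.22, 5.44 and 5.40 FPKM in prepuberty and 0.449, 0 and 0.206 FPKM in puberty, with log2 fold changes of -1.90 and -1.77. The files pair these identifiers with no name, so no role is given.

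The 13 genes with symbols that complete the 50 had smaller differences. SLC2A4RG, SPA17 and DGKE were higher in puberty. DGKE, a kinase that removes the second messenger diacylglycerol, measured 1.23, 1.71 and 0.240 FPKM in prepuberty and 3.19, 2.02 and 4.06 FPKM in puberty, with log2 fold changes of 1.03 and 1.24. ACOT11, ANXA5, MPPED1, THUMPD1, KLHL5, NPL, JRK, LYPD1, TAGAP and RBPJ were lower. RBPJ, the transcription factor of Notch signalling, measured 9.09, 6.66 and 6.32 FPKM in prepuberty and 4.29, 0 and 2.21 FPKM in puberty, with log2 fold changes of -1.69 and -1.004. ANXA5, which binds phosphatidylserine, measured 62.3, 22.1 and 44.1 FPKM in prepuberty and 21.9, 7.80 and 13.9 FPKM in puberty, with Prepuberty 2 only just above Puberty 1 and log2 fold changes of -1.48 and -1.13. Across these 13 genes the smaller of the absolute log2 fold changes with and without Puberty 2 was at most 1.14.

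Puberty 2 held the most extreme puberty value in 13 of the 21 higher genes and in 21 of the 29 lower genes. The mean in the stage with more expression was at least 10 FPKM for 11 of the 21 higher and for 9 of the 29 lower genes. Of the 50 genes, 1 of those higher and 9 of those lower in puberty were listed at 0 in at least 1 of the 6 libraries. After scaling to the upper quartile 21 higher and 27 lower genes still did not overlap, after scaling to equal totals 19 and 28, and after quantile normalization 20 and 20.

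The postpuberty libraries, which had not been used to choose these genes, were compared with the midpoint between the prepuberty and puberty means on the log2 scale. Among the 21 genes higher in puberty, all 3 postpuberty libraries were on the puberty side of the midpoint for 4, 2 of them for 4, 1 for 11 and 0 for 2. Among the 29 genes lower in puberty the numbers were 1, 16, 7 and 5. The 1 lower gene with all 3 postpuberty libraries on the puberty side was ITPR1. PRR18 was among the 5 with 0. The same was not counted over all genes tested, so these numbers describe the genes chosen and nothing is concluded from them.

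Genes with the smallest p-values outside the 50 included P2RY1, PIGS, CRHR2, SLC25A10 and ASB3. P2RY1, a receptor for extracellular ADP, was listed at 0 in all prepuberty libraries and in Puberty 2 and measured 2.0 FPKM in Puberty 1 and 1.40 FPKM in Puberty 3. No fold is given for it against a stage listed at 0. PIGS, a subunit of the enzyme that attaches lipid anchors to proteins, measured 5.77, 3.14 and 9.61 FPKM in prepuberty and 0.302, 9.001 and 0.800 FPKM in puberty. In PIGS, Puberty 2 lay within the range of prepuberty, and the log2 fold change was -2.12 ± 0.37 without it, -1.22 ± 0.69 with it and -0.65 without Puberty 1.

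CRHR2, the receptor for urocortins, passed the filter only without Puberty 2. It measured 0.0678, 0.0753 and 0.0657 FPKM in prepuberty and 0.924, 0 and 1.56 FPKM in puberty. Its unadjusted limma p of 0.00198 without Puberty 2 is not used as support, since the gene reached the filter only through the puberty libraries kept. SLC25A10, the dicarboxylate carrier of mitochondria, was lower in every puberty library (3.82, 3.14 and 3.72 FPKM in prepuberty and 1.41, 0.0249 and 1.58 FPKM in puberty). Its log2 fold change was -1.30 ± 0.36 with Puberty 2 and -0.87 ± 0.17 without it. ASB3, an adaptor of ubiquitin ligases, was higher as well at 1.03, 0.967 and 1.84 FPKM against 0.389, 0.184 and 0.278 FPKM, with log2 fold changes of 0.81 and 0.91.

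The neuropeptide genes of the hypothalamus overlapped between the stages. Of 14 tested, 0 had puberty libraries all above or all below prepuberty, with Puberty 2 or without it, and with shares of 2.25% and 2.86% over all genes a count of 0 in so short a list says little about these genes. The median log2 fold change was -0.264 with Puberty 2 (all genes -0.159) and 0.201 without it (all genes 0.024). KISS1, which encodes kisspeptin, measured 0, 0.217 and 0.303 FPKM in prepuberty and 0.136, 0.360 and 0.124 FPKM in puberty and was below the filter. TAC3, which encodes neurokinin B, measured 0.211, 3.49 and 1.87 FPKM in prepuberty and 2.41, 0.156 and 0.322 FPKM in puberty, and PDYN, which encodes the dynorphin precursor, measured 0.272, 4.48 and 0.941 FPKM in prepuberty and 2.63, 0 and 1.21 FPKM in puberty. In each of these genes the puberty values lay within or around the prepuberty range.

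POMC, the precursor of alpha-MSH and beta-endorphin, measured 2.09, 2.72 and 4.10 FPKM in prepuberty and 3.15, 22.4 and 12.8 FPKM in puberty, with Puberty 2 and 3 above all prepuberty libraries and Puberty 1 among them. Its log2 fold change was 1.51 ± 0.65 with Puberty 2 and 0.96 ± 0.63 without it. POMC is also made in the pituitary, and the summed FPKM of 11 other pituitary genes was 0.8, 14.4 and 89.7 in the puberty libraries, against 5.9, 1.1 and 30.9 in those of prepuberty. Their part in the result was not tested. TRH, the thyrotropin-releasing hormone, measured 8.93, 0.824 and 4.11 FPKM in prepuberty and 8.11, 12.9 and 20.7 FPKM in puberty, with log2 fold changes of 1.63 ± 0.98 and 1.64 ± 1.19. NPY, an appetite-stimulating peptide, measured 22.7, 4.51 and 3.25 FPKM in prepuberty and 5.10, 0.222 and 6.13 FPKM in puberty.

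Other peptides varied widely between animals of a stage. CRH, the corticotropin-releasing hormone, measured 118, 0.392 and 2.06 FPKM in prepuberty and 2.47, 3.16 and 2.99 FPKM in puberty, so that Prepuberty 1 alone was high. SST, which encodes somatostatin, measured 13.1, 95.4 and 23.4 FPKM in prepuberty and 67.3, 8.34 and 39.2 FPKM in puberty. Among the 6 libraries, SST, TAC1 (substance P precursor) and PENK (enkephalin precursor) were each lowest in Puberty 2.

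Of 18 genes that the study places in the GnRH secretion pathway, 16 were tested with Puberty 2 and 17 without it, and 0 were separated by stage either way, beside 2.25% higher and 2.86% lower among all genes with Puberty 2 and 6.82% and 4.51% without it. In a list of this length a count of 0 says little. The study chose this list on these samples, so it is not independent evidence. With Puberty 2, 1 of 16 log2 fold changes was above 0 and the median was -0.545 (all genes -0.159). Without it, 9 of 17 were above 0 and the median was 0.005 (all genes 0.024). GNAQ, the G-protein alpha subunit downstream of the GnRH and kisspeptin receptors, measured 11.2, 14.99 and 11.3 FPKM in prepuberty and 12.6, 7.27 and 10.6 FPKM in puberty. Puberty 2 was well below prepuberty and Puberty 3 just below it, and the log2 fold change was -0.29 ± 0.26 with it and -0.09 ± 0.18 without it.

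PRKCA, a protein kinase C, measured 20.4, 0.882 and 7.12 FPKM in prepuberty and 5.601, 0.156 and 2.45 FPKM in puberty. Its prepuberty libraries covered a wider range than its puberty libraries, and the log2 fold changes were -1.21 ± 0.96 and -0.53 ± 1.02. PRKACB, a catalytic subunit of protein kinase A, measured 21.3, 46.1 and 22.5 FPKM in prepuberty and 27.0, 2.15 and 31.2 FPKM in puberty, with log2 fold changes of -1.04 ± 0.78 and 0.05 ± 0.32. Puberty 1 and 3 lay within the prepuberty range of PRKACB, and Puberty 2 far below it.

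Genes that gate puberty onset or act on GnRH neurons formed another list. EED, a Polycomb subunit that holds back KISS1 before puberty in rodents, was the 1 of 17 that was higher in every puberty library, beside 2.25% of all genes, and 0 were lower. Without Puberty 2, 2 of 18 were higher, beside 6.82% of all genes. The median of the list was -0.352 with Puberty 2 (all genes -0.159) and 0.019 without it (all genes 0.024). EED measured 4.19, 3.35 and 3.41 FPKM in prepuberty and 5.17, 5.10 and 4.24 FPKM in puberty, higher in puberty by a log2 fold change of 0.33 ± 0.23 with Puberty 2 and 0.29 ± 0.18 without it. With FPKM scaled to the upper quartile, to equal totals or by quantiles, 0 members were higher in every puberty library. MKRN3, a ubiquitin ligase that restrains puberty, measured 0.900, 0.700 and 0.864 FPKM in prepuberty and 0.834, 0.181 and 0.693 FPKM in puberty and was below the filter. DLK1, another gene with mutations in early puberty, measured 7.37, 3.60 and 1.93 FPKM in prepuberty and 6.20, 0.247 and 2.28 FPKM in puberty.

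Immediate-early genes report recent activity of neurons. Of 19 tested with Puberty 2, CCN1, a matricellular protein gene, was lower in every puberty library (6.38, 6.03 and 5.22 FPKM in prepuberty and 3.74, 0.155 and 4.32 FPKM in puberty) and 0 were higher. A share of 1 in 19 compares with 2.86% lower among all genes. CCN1 had log2 fold changes of -1.16 ± 0.53 with Puberty 2 and -0.45 ± 0.19 without it. The median of the list was -0.439 (all genes -0.159) and -0.091 (all genes 0.024). FOS measured 17.0, 11.7 and 4.59 FPKM in prepuberty and 2.95, 1.36 and 14.8 FPKM in puberty, and EGR1 measured 13.1, 18.2 and 2.52 FPKM in prepuberty and 3.79, 0.266 and 9.06 FPKM in puberty. In both genes Puberty 3 lay within the range of prepuberty.

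Of 15 circadian clock genes, HLF and BHLHE40 were lower in every puberty library, beside 2.86% of all genes, and 0 were higher. The median was -0.374 with Puberty 2 (all genes -0.159) and -0.057 without it (all genes 0.024). HLF, a clock-output transcription factor, measured 12.4, 17.3 and 11.5 FPKM in prepuberty and 11.3, 0 and 7.85 FPKM in puberty, and its log2 fold change was -1.60 ± 0.80 with Puberty 2 and -0.48 ± 0.25 without it. BHLHE40, a repressor in the clock loop, measured 2.63, 3.61 and 2.03 FPKM in prepuberty and 1.17, 0 and 2.02 FPKM in puberty, and its log2 fold changes were -0.98 ± 0.40 and -0.53 ± 0.25. The core clock genes CLOCK and BMAL1 overlapped between the stages.

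Cell type markers overlapped between the stages with few exceptions. OPALIN, a myelin membrane protein of oligodendrocytes, was lower in every puberty library (143, 133 and 171 FPKM in prepuberty and 120.4, 106 and 104 FPKM in puberty), and the other 11 oligodendrocyte markers overlapped. ITGAM, an integrin of microglia, was lower too (16.1, 7.20 and 8.74 FPKM in prepuberty and 7.06, 2.32 and 5.02 FPKM in puberty), as 1 of 12 microglia markers. EGFL7, a secreted protein of vessel walls, was higher (5.42, 12.2 and 10.9 FPKM in prepuberty and 14.0, 29.5 and 19.97 FPKM in puberty), as 1 of 10 endothelial markers. Counts of 1 in lists of 10 or 12 stand beside 2.25% higher and 2.86% lower among all genes. ITGAM overlapped after upper quartile scaling and after quantile normalization, and OPALIN overlapped after quantile normalization. With and without Puberty 2 the log2 fold changes were -0.43 and -0.40 for OPALIN, -1.03 and -0.67 for ITGAM, and 1.08 and 0.82 for EGFL7. Of the neuron, astrocyte, precursor and synaptic vesicle genes, 0 had libraries that did not overlap.

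The medians of several lists turned sign or came close to 0 when Puberty 2 was taken out. For 28 cytosolic ribosomal protein genes the median was 0.56 with Puberty 2 and -0.014 without it, and their summed FPKM was 25563.4 in Puberty 2 against 6736.1 to 10440.4 in the other 5 libraries of the comparison. For 11 neuron markers the median was -0.694 with Puberty 2, and for 12 without it -0.008. For 20 synaptic vesicle genes it was -0.294 and 0.258. Prepuberty libraries moved these medians too, to 0.21 for the synaptic vesicle genes and -0.21 for the neuron markers without Prepuberty 2, and to -0.78 and -1.28 without Prepuberty 1. Lists with a median above 0 both ways and under each scaling included those of the choroid plexus, of the cerebellum, of ependymal cells and of the respiratory chain. This is not read as stability. With Puberty 2, only 7 of 9 choroid plexus and 6 of 11 ependymal genes passed the filter. Without Puberty 3 the choroid plexus median was -0.37 over 4 genes, and the cerebellar list was added after its values had been seen. The medians of lymphocytes, antigen presentation, microglia and interferon-stimulated genes were below 0 both ways and under each scaling. This was not particular to them. The medians of GABA and glutamate receptors, immediate-early genes, clock genes and genes of hypoxia and glucocorticoid response were below 0 throughout too. So were those of endothelial, oligodendrocyte and neuron markers, among other lists. Without Prepuberty 1, however, the median of the microglia markers was 0.02, and that of the lymphocyte markers was -0.27 over only 2 genes tested, against -0.777 over 6 with all libraries. ATP5MC1, which encodes the c subunit of mitochondrial ATP synthase, was the 1 of 19 respiratory chain genes that was higher in every puberty library (133, 161 and 151 FPKM in prepuberty and 187, 484 and 191 FPKM in puberty), beside 2.25% of all genes, with log2 fold changes of 0.80 with Puberty 2 and 0.35 without it.

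Counts of list members that separate the stages changed when a single library was left out, as they did over all genes. Without Prepuberty 2, 834 of all 12614 genes tested were higher and 1027 of them lower. In that setting 13 of 19 respiratory chain genes were higher (median 0.534). Lower were 9 of 22 interferon-stimulated genes, 4 of 10 antigen presentation genes, 4 of 12 microglia markers and 5 of 12 oligodendrocyte markers. Without Puberty 3, 529 of all 12587 genes tested were higher and 1454 of them lower. In that setting 8 of 19 immediate-early genes (median -0.754), 6 of 22 interferon-stimulated genes and 5 of 15 circadian clock genes were lower. Fewer libraries have to be separated when 1 is left out, so part of each rise is built in. Without Prepuberty 1, when 832 of all 12513 genes tested were higher and 700 of them lower, 1 of 19 respiratory chain genes was higher. In the same setting 2 of 22 interferon-stimulated genes were lower. The counts of these lists thus depended on which library was left out.

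**Figure D4:**
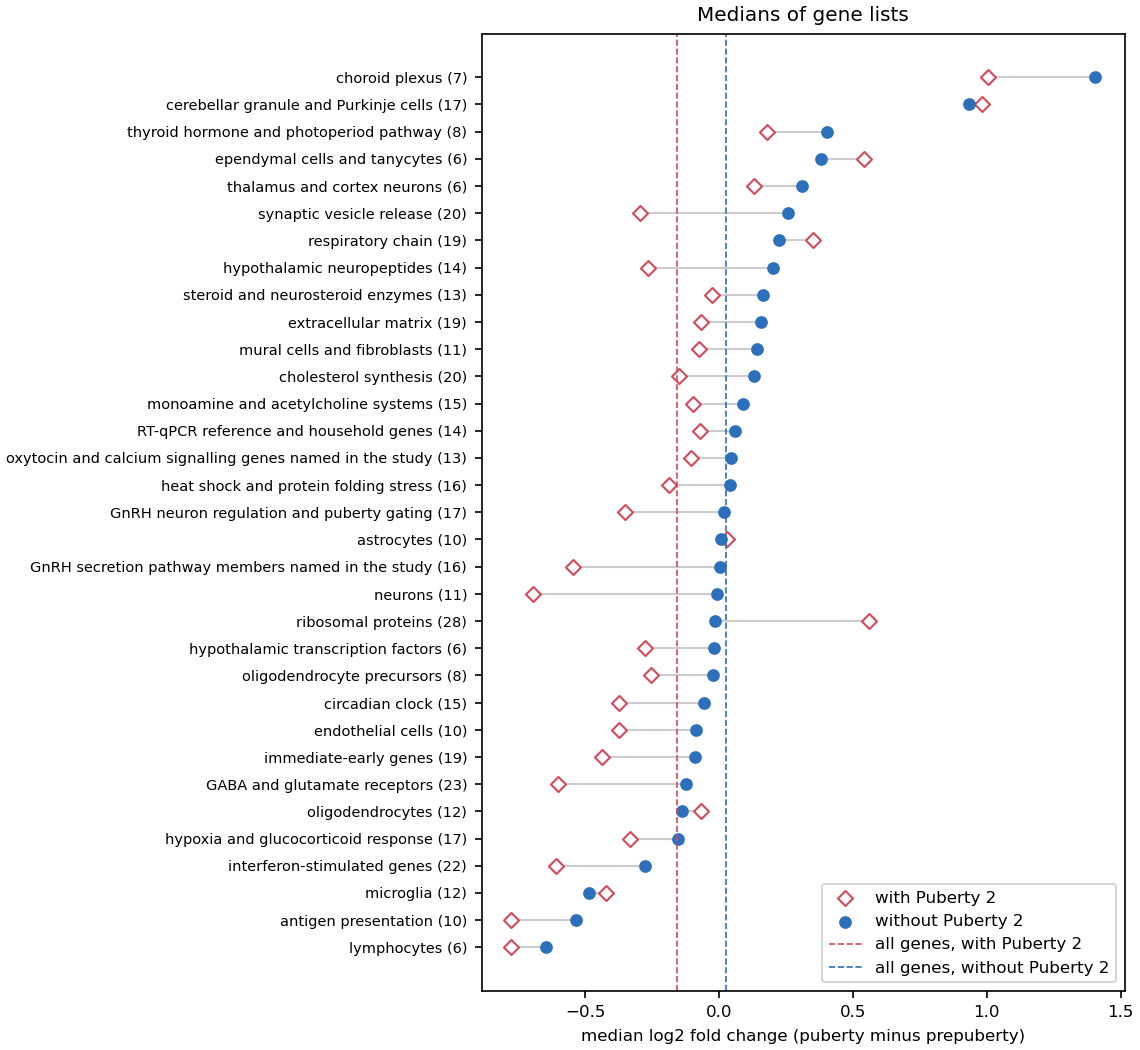
Median log2 fold change (puberty minus prepuberty) of gene lists with at least 6 genes tested, with Puberty 2 (open diamonds) and without it (circles), and the medians of all genes as dashed lines. The number of genes tested with Puberty 2 follows each name. Ribosomal protein genes move from 0.56 to -0.014 and neuron markers from -0.694 to -0.008 when Puberty 2 is left out.

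Single libraries held high levels of choroid plexus genes. TTR, the thyroid hormone carrier made by the choroid plexus, measured 337, 9.07 and 32.5 FPKM in prepuberty and 255, 554 and 7594 FPKM in puberty. KCNJ13 and AQP1, a potassium and a water channel of the same epithelium, measured 29.8 FPKM and 13.3 FPKM in Puberty 3 and at most 3.15 FPKM and 0.91 FPKM in the other 5 libraries. The summed FPKM of the 9 choroid plexus genes was 7684.0 in Puberty 3 and between 39.1 and 555.6 in the others. Its median log2 fold change of 1.006 with Puberty 2 and 1.406 without it was accompanied by a median of -0.37 without Puberty 3, when only 4 genes passed the filter.

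**Figure D5:**
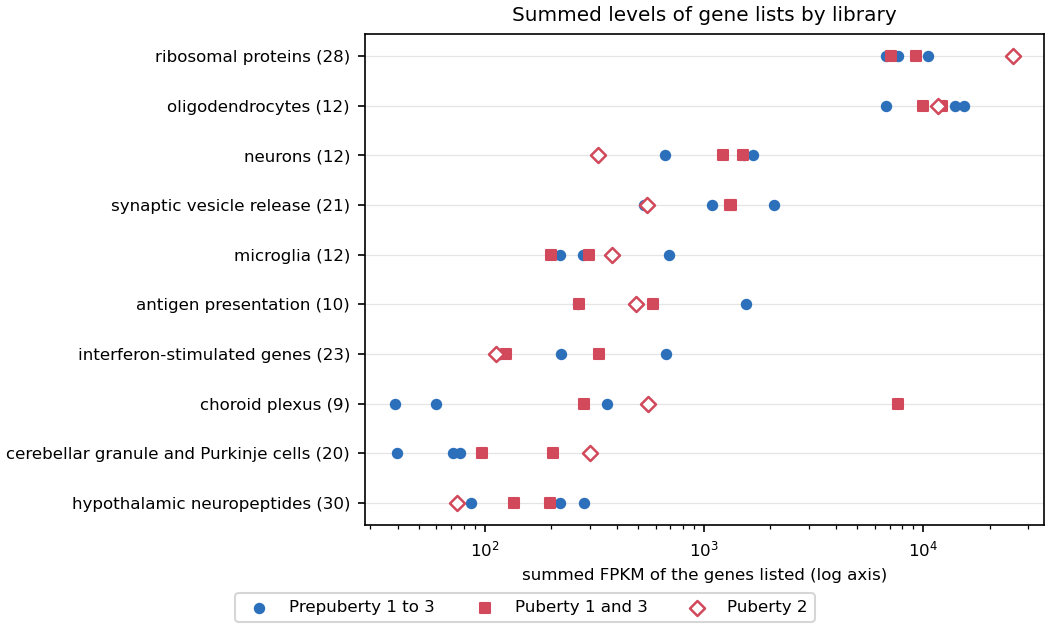
Summed FPKM of the genes of 10 lists in each prepuberty and puberty library on a log axis, with the number of genes in brackets (circles prepuberty, squares Puberty 1 and 3, open diamonds Puberty 2). Puberty 2 has the highest sum of ribosomal protein genes and the lowest of neuron markers, Puberty 3 the highest of choroid plexus genes and Prepuberty 1 the highest of interferon-stimulated and antigen presentation genes.

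The differences of several abundant genes rested on Puberty 2. HSPA5 measured 94.4, 47.1 and 44.2 FPKM in prepuberty and 72.1, 0 and 74.5 FPKM in puberty, with log2 fold changes of -1.74 ± 1.42 with Puberty 2 and 0.33 ± 0.38 without it. HMGCS1, an early enzyme of cholesterol synthesis, measured 126, 69.3 and 69.6 FPKM in prepuberty and 94.8, 0.399 and 111 FPKM in puberty, with -1.80 ± 1.41 and 0.27 ± 0.29. CAMK2G, a calcium-dependent kinase of the oxytocin pathway, measured 37.1, 66.0 and 31.6 FPKM in prepuberty and 61.5, 1.32 and 50.0 FPKM in puberty, with -1.16 ± 1.07 and 0.37 ± 0.32. The sign of the last 3 differences turned when that library was left out.

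HSPA1A, which encodes the inducible heat shock protein 70, measured 12.4, 27.1 and 11.6 FPKM in prepuberty and 34.4, 0.0375 and 34.5 FPKM in puberty. It was higher in Puberty 1 and 3 than in every prepuberty library and close to 0 in Puberty 2, so that the log2 fold change was 1.08 ± 0.53 without Puberty 2 and -0.62 ± 1.22 with it.

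Libraries were also weighted by their own spread in limma, which gave Puberty 2 a weight of 0.0584 and the other libraries of the comparison weights between 0.515 and 8.32. In this fit 4 genes had an adjusted p below 0.05. PRR18 was lower in puberty with a log2 fold change of -2.13 (limma adjusted p = 0.00176). ITPR1 and PIGS were lower too, with log2 fold changes of -1.77 and -2.67, and P2RY1 was higher, all with a limma adjusted p of 0.0458. Of these, PRR18 and ITPR1 belong to the genes whose libraries did not overlap with or without Puberty 2. P2RY1, listed at 0 in all prepuberty libraries, passed the filter only through puberty, and ITPR1 only through prepuberty. The adjusted p-values of P2RY1 and ITPR1 are therefore not used as support. The highest weight, 8.32, went to Prepuberty 3.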

How the data were processed

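Total RNA of the hypothalamus of 9 Dolang ewes had been extracted with TRIzol, 1 library being made per animal and 3 per stage. Per the labels and methods, the authors trimmed the reads with Trimmomatic (version 0.32 in the submitters' processing notes), aligned them with HISAT2 to ARS-UI_Ramb_v3.0 and quantified transcripts with StringTie. The deposited table holds FPKM per transcript although it is described as raw counts, so a limma test on log2(FPKM + 1) took the place of the count test of the study. The strand used in quantification is not given in the sources used here, so overlapping genes on opposite strands may share reads. FPKM carry no read totals, so no counting error is given and the precision rests on the spread between 3 animals.

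Of 115108 transcripts, 76684 were RefSeq messenger RNAs, and 76682 of these were matched through the RefSeq gene table and summed to 21284 genes. Assembled transcripts without a gene name were not used. Genes with a mean of at least 1 FPKM in prepuberty or puberty entered limma 3.58.1 (R 4.3.3, stages as groups, variance trend), with all 9 libraries and again without Puberty 2. A gene was called at a Benjamini-Hochberg adjusted p below 0.05 with a log2 fold change of 1 or more in either direction. The fit was tested on simulated data. Fold changes are on the log2(FPKM + 1) scale, which understates the change of low genes.

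Genes were named by rule. They were the 15 per direction whose libraries did not overlap with the largest smaller difference of both fits (LOC symbols aside), the 5 per direction with the smallest p in each fit, and list members whose libraries did not overlap together with the defining members of the neuropeptide, GnRH secretion and immediate-early lists. A few genes that these rules name are not reported here. The other genes printed were chosen after their values were seen. The comparison, the gene lists and the rules were chosen with earlier results of these data known, and the cerebellar list was added after the values had been seen. Alternatives were other scalings, pseudocounts and filters, each replicate left out, library weights, a replicate block, no variance trend and a fit of the 6 libraries alone. The scalings and the pseudocount without Puberty 2 were added after the data had been seen. Tables were handled with Python 3.11.15 and pandas 2.3.3, and figures were drawn with matplotlib 3.10.9.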

Additional observations from a re-analysis of the deposited data

How the results depend on the processing

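The number of genes called was 0 in each direction under every alternative run except library weights, which called 1 gene higher and 3 genes lower in puberty. The smallest adjusted p of limma over the other alternatives lay between 0.0828 (without Prepuberty 1) and 0.939 (quantile normalization). Genes with all puberty libraries above all prepuberty libraries numbered 284, and 457 with no filter, 166 with a minimum mean of 5 FPKM and 169 after scaling to equal totals. Genes with all puberty libraries below numbered 361, and 173 with a minimum mean of 5 FPKM and 595 after scaling to equal totals. With 1 replicate left out the numbers were 460 to 900 higher and 571 to 1454 lower, since fewer libraries have to be separated. Quantile normalization gave 415 higher and 306 lower. Without Puberty 2, higher genes made up 60.2% of the separated genes as deposited, 58.9% after upper quartile scaling, 50.0% after scaling to equal totals and 47.8% after quantile normalization. The median log2 fold change over all genes was -0.313 after scaling to equal totals and 0.002 after quantile normalization, against -0.159 as deposited.

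Of 1019 log2 fold changes of 52 named genes under 20 alternatives, 4 passed the threshold with library weights and 0 turned direction. Most of these genes were named because their libraries did not overlap, which fixes their direction when a library is left out, and hardly any value passed the threshold, so these numbers say nothing about stability. Genes described above for other reasons that turned direction without Puberty 2 included HSPA5, HMGCS1, CAMK2G, PRKACB and HSPA1A. Without Puberty 1 and without Puberty 3, 659 and 573 genes had an unadjusted p below 0.05, against 215 with all libraries. A replicate block called 0 genes, with 244 unadjusted p-values below 0.05 and a smallest limma adjusted p of 0.826. Replicates of the same number did not deviate together (correlations of -0.318, -0.201 and -0.0853). Those of different numbers had correlations between 0.0195 and 0.299. Deviations were taken from stage means that include Puberty 2 and sum to 0 within a stage. These correlations therefore cannot settle whether the numbers pair the animals. The cause of these shifts was not tested.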

Other observations

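The summed level of 11 pituitary genes varied within every stage. In postpuberty the libraries held 216.1, 80.0 and 14.3 FPKM of them, beside 0.8, 14.4 and 89.7 FPKM in puberty. Genes of antigen presentation and interferon response were highest in Postpuberty 3, where B2M reached 1508 FPKM and the interferon-stimulated genes summed to 726.6 FPKM.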
